A study of Rattus norvegicus with 16 samples.

Results

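The comparison described here set osteoarthritic rat knee cartilage given cells and a drug in a coacervate against osteoarthritic rat knee cartilage given cells and a drug in hyaluronic acid (HA), going by the label that lists each carrier with the cells and the drug. Its members are the 4 coacervate and the 4 HA libraries, which are 8 of the 16 libraries of the series, and they were taken from the sample labels, with all genes measured. The remaining 8 libraries are 4 of osteoarthritic cartilage, whose library names read PBS, and 4 of healthy cartilage, whose library names read Sham. All libraries carry an age of 10 weeks. The labels of both treated groups name the disease, cells and a drug, so that the labels separate them by the carrier alone. Whether the cells, the drug and their doses were the same in both is not stated. What the coacervate was made of, which drug and cells were used and how the disease was brought about are not in the labels, and no treatment that leaves out the carrier or the cells was analysed here. Nothing in them ties a replicate to its own animal, so the p-values measure the spread between these libraries, which may be technical.

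Hyaluronic acid is a long sugar polymer of cartilage matrix and joint fluid that cells bind through the receptor CD44. A coacervate is a polymer-rich liquid phase that separates from water and can hold proteins, drugs or cells. In a joint with osteoarthritis, macrophages and other myeloid cells take up debris and lipids, release chemokines that call in monocytes, and secrete proteases that act on the matrix. The question put to the data was whether cartilage treated with the coacervate held different transcript levels from cartilage treated with HA.

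Total counts in the 8 libraries ran from 44902493 to 50725189, and 19147 to 19457 genes had a count above 0. Levels are given as normalised CPM, the count scaled to the library total after TMM correction. Of the 8 chondrocyte markers, all were detected in every one of the 8 libraries, with Col2a1, the main cartilage collagen, at 214.01 to 416.3 FPKM with the coacervate and 393.06 to 593.21 FPKM with HA. Transcripts of blood and muscle were present too. The listed haemoglobin genes took 13.6% ± 1.71 of the counts with the coacervate and 11.4% ± 0.519 with HA (SD, n = 4 each), and the listed skeletal muscle genes took 1.43% ± 0.889 with the coacervate and 0.628% ± 0.0563 with HA. The muscle share was 2.7% in coacervate replicate 3, against 0.807% to 1.38% in the other coacervate libraries and 0.561% to 0.688% in the HA libraries. Among the other libraries, OA replicates 2 and 3 stood apart on the first principal component, at 69.6 and 58.9, against -32.3 to 12.7 in the other 14. On the second component the coacervate libraries lay at 8 to 11.7 and the HA libraries at -26.5 to -4. In a bulk sample, fewer cells of a type and less RNA per cell cannot be told apart, and this holds for every value below.

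No gene passed the test between the carriers. With edgeR's quasi-likelihood test in 1 fit over the 16 libraries, 0 of 14337 tested genes had an adjusted p under 0.05 (0%), and the smallest adjusted p was 0.101. An unadjusted p under 0.05 was found for 1485 genes (10.4%), of which 735 were higher with the coacervate (5.13%) and 750 were lower (5.23%). The 4 coacervate values did not overlap with the 4 HA values for 1392 genes (9.71%), with 623 higher (4.35%) and 769 lower (5.36%). On the FPKM scale of the authors, that split was 434 higher and 951 lower. DESeq2 called 325 genes, of which 172 rose and 153 fell. Without OA replicates 2 and 3, the common dispersion was 0.0364, against 0.0538 with all 16 libraries, and edgeR then called 149 genes (1.04%), of which 23 rose (0.16%) and 126 fell (0.879%). In that fit 146 of the 149 called genes had no overlap between the carriers, against 9.71% of all genes. The calls and the overlap use the same coacervate and HA values, so this count is not separate support for the calls. With the 8 coacervate and HA libraries alone, which also leaves out OA replicates 2 and 3, edgeR called 0 genes.

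**Figure D1:**
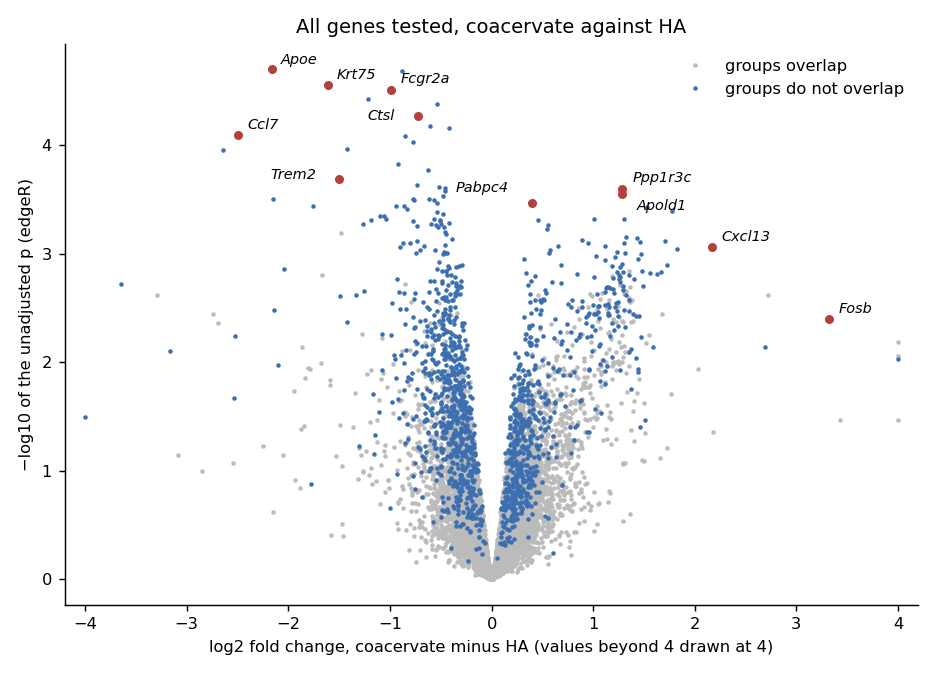
Log2 fold change, coacervate minus HA, on the horizontal axis and −log10 of edgeR's unadjusted p on the vertical axis, for each of the 14337 tested genes. Blue points are genes whose 4 coacervate and 4 HA values do not overlap, red points are named genes, and 5 genes beyond the axis are drawn at its edge. Apoe and Ccl7 lie far to the left, and Cxcl13 and Fosb far to the right.

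Genes of lipid-handling macrophages were lower with the coacervate. Apoe, which carries lipids between cells (ENSRNOG00000018454, rn6 chromosome 1, 80612895 to 80617057), had 391, 462, 563 and 272 CPM in coacervate replicates 1 to 4, against 1313, 2619, 2292 and 1326 CPM in HA replicates 1 to 4. The highest coacervate library was below the lowest HA library, and the mean was 4.47-fold lower (log2 fold change -2.16 ± 0.36 SE, edgeR adjusted p = 0.101). Trem2, the macrophage receptor that senses lipids (chromosome 9, 14611561 to 14618013), had 7.52, 8.85, 12.2 and 5.69 CPM with the coacervate, against 19.8, 39.2, 24.6 and 13.7 CPM with HA. Its groups did not overlap either (-1.50 ± 0.31, adjusted p = 0.138). Fabp5, a fatty acid carrier, had 34.5, 23, 21.9 and 21.9 CPM with the coacervate, against 35.1, 69.7, 51.6 and 38.6 CPM with HA (-0.94 ± 0.21, adjusted p = 0.138). The sugar-binding lectin Lgals3 differed by -0.87 ± 0.19 and the phosphoprotein Spp1, made by macrophages and bone cells, by -1.06 ± 0.24. HA replicate 2 held the highest value of all of these genes, and without it Apoe differed by -1.96, Trem2 by -1.18 and Spp1 by -0.73. Of the 18 tested list members, 9 had lower, non-overlapping coacervate values (50%, against 5.36% of all genes) and none had higher ones, and the list median was -0.39, against -0.0015 over all genes tested and -0.25 without HA replicate 2. The gene lists were chosen with earlier results of these data known, so this share and those of the lists below are descriptions, not separate support. Without OA replicates 2 and 3, Apoe (adjusted p = 0.0307), Trem2 (0.0467) and Fabp5 fell in edgeR's test. With the 8 coacervate and HA libraries alone, no gene was called.

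**Figure D2:**
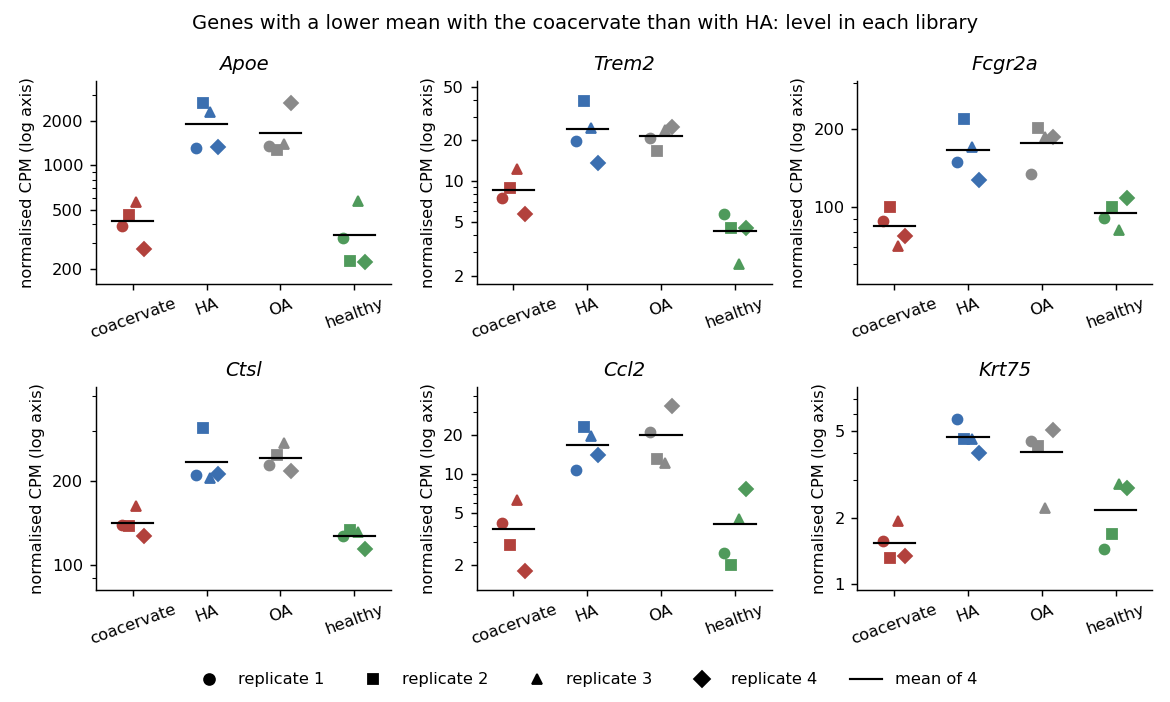
Normalised CPM on a log axis in each of the 16 libraries for 6 genes, with coacervate, HA, osteoarthritic (OA) and healthy libraries from left to right, a symbol for each replicate and a line at the mean of 4. For Apoe, Trem2, Fcgr2a, Ctsl, Ccl2 and Krt75 each coacervate value lies below each HA value.

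Receptors for antibodies and sugars on myeloid cells followed the same order. Fcgr2a, a receptor for IgG (chromosome 13, 91146876 to 91228935), had 88.5, 100.01, 70.8 and 77 CPM with the coacervate, against 149, 219, 170.4 and 127 CPM with HA, with no overlap (-0.99 ± 0.17, edgeR adjusted p = 0.101). The related receptor Fcgr2b differed by -0.78 ± 0.18. These genes are near copies of each other, so the division of reads between them is uncertain. Lilrb4, an inhibitory receptor, had 40.9 to 62.3 CPM with the coacervate and 73.5 to 134 CPM with HA. The lectin Clec7a, which binds fungal glucans, had 70.4 to 86.8 CPM with the coacervate and 117 to 185 CPM with HA. Of 20 tested members, 8 were lower without overlap (40%, against 5.36% of all genes) and 1 was higher (5%, against 4.35%), with a list median of -0.36. Of 22 tested general macrophage genes, 7 were lower without overlap (31.8%, against 5.36% of all genes) and 1 was higher (4.55%, against 4.35%), and the list median was -0.19. The transcription factor Spi1 differed by -0.48 ± 0.14, the endotoxin co-receptor Cd14 by -0.85 ± 0.26 and the folate receptor Folr2 by -0.86 ± 0.24. The member that was higher was Lyve1, an HA receptor of lymphatic vessels and resident macrophages, at 18.6 to 37.1 CPM with the coacervate and 13.4 to 17 CPM with HA (0.74 ± 0.22).

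Lysosomal genes were lower with the coacervate. Ctsl, the lysosomal protease cathepsin L (chromosome 17, 1872848 to 1879279), had 139, 137, 162 and 127 CPM with the coacervate, against 209, 308, 205 and 211 CPM with HA (-0.73 ± 0.13, edgeR adjusted p = 0.108). HA replicate 2 was again highest, and without it the difference was -0.56. Cd63, a membrane protein of late endosomes, had 219, 185, 189.6 and 195 CPM with the coacervate, against 275, 323, 282 and 258 CPM with HA (-0.53 ± 0.12). Ctsd, cathepsin D, had 399 to 409.5 CPM with the coacervate and 429.9 to 679 CPM with HA (-0.49 ± 0.13). Of the 37 tested entries, 36 had a negative log2 fold change and 17 were lower without overlap (45.9%, against 5.36% of all genes), while 1 was higher (2.7%, against 4.35%). The list median was -0.29, and it stayed between -0.31 and -0.22 when any single coacervate or HA library was left out.

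The transcription factor TFEB and its relatives bind the E-box CACGTG near many lysosomal genes, and the promoters of a pair of members are shown because they hold that motif. They run from 250 bases before to 50 bases after the start of the gene and come from RefSeq, build GRCr8. Capitals mark CACGTG and, where present, the AP-1 motif TGANTCA, searched on both strands. The promoter of Cd63 (chr7:1921894-1922193, plus strand) holds 1 CACGTG and 1 TGANTCA, and that of Ctsd (chr1:206968772-206969071, minus strand) holds 2 CACGTG.
Cd63 promoter: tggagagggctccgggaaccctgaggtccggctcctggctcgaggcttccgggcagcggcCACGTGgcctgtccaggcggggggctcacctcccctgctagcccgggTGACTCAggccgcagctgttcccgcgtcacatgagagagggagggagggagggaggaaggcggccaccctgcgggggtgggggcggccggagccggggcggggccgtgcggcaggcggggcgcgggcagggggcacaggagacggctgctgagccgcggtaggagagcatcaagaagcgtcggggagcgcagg
Ctsd promoter: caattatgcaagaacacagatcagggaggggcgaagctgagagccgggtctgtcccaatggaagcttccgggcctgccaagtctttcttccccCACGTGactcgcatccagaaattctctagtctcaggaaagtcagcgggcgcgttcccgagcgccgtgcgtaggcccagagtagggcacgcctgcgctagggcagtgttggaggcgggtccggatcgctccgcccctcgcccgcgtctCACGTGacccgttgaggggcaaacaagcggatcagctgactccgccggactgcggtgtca
A promoter was found for 29 of the 36 lysosomal symbols (80.6%), and 7 of the 29 hold CACGTG (24.1%), against 6.42% of the 33469 promoters in the table. The promoter of Ctsl holds none. Among other lists the share was 25% for lipid-handling macrophage genes, 26.7% for circadian clock genes, 23.8% for immediate early and heat shock genes and 0% for neutrophil genes. Its relation to the direction of the lists was not tested. A match is a description of the letters and does not show binding.

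Granule genes of neutrophils were lower as a block. Ngp, a granule protein, had 916, 1034, 744 and 936 CPM with the coacervate, against 1213, 1507, 1493 and 1329 CPM with HA (-0.61 ± 0.17). Padi4, the enzyme that converts arginine to citrulline in neutrophil histones, had 28.3 to 33.8 CPM with the coacervate and 38.8 to 54.8 CPM with HA (-0.57 ± 0.12, edgeR adjusted p = 0.138). Lcn2, which binds bacterial iron carriers, differed by -0.77 ± 0.21, and Mmp8, neutrophil collagenase, by -0.43 ± 0.12. Each of the 20 tested members had a negative log2 fold change, from -0.86 to -0.23, and 17 had no overlap (85%, against 5.36% of all genes), with a list median of -0.60. Leaving out any single coacervate or HA library kept the median between -0.65 and -0.55. Without OA replicates 2 and 3, 10 of the 20 members fell, against 0.879% of all genes, among them Padi4, S100a8, S100a9 and Elane. None was called with the 8 coacervate and HA libraries alone. The T cell and NK cell list had a median of -0.25, with 1 of 18 members lower without overlap (5.56%, against 5.36% of all genes). Its median was -0.09 without HA replicate 2.

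Ccl2 and Ccl7, chemokines that attract monocytes, had low levels that did not overlap between the carriers. Ccl2 had 4.18, 2.85, 6.34 and 1.8 CPM with the coacervate, against 10.8, 23, 19.6 and 14.1 CPM with HA (-2.15 ± 0.47, edgeR adjusted p = 0.138). Ccl7, its neighbour on chromosome 10, had 1.78, 0.478, 1.22 and 0.527 CPM with the coacervate, against 3.49, 7.62, 6.04 and 5.46 CPM with HA (-2.49 ± 0.47, adjusted p = 0.108). Its coacervate values rest on 90, 24, 58 and 26 counts, so that counting error is not small there. Il1rn, which blocks the interleukin-1 receptor, differed by -0.90 ± 0.22, while Il1b, the cytokine it opposes, had overlapping groups (-0.31 ± 0.32). Cxcl13, which attracts B cells, went the other way, with 33, 14.1, 16 and 11.3 CPM with the coacervate and 2.42, 6.44, 2.19 and 5.46 CPM with HA (2.17 ± 0.53, adjusted p = 0.155). Of 24 tested cytokine and chemokine genes, 4 were lower without overlap (16.7%, against 5.36% of all genes) and 2 were higher (8.33%, against 4.35%). The B cell list had a median of -0.06.

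The stromelysins were lower on average with the coacervate, with overlapping groups. Mmp3, stromelysin-1, had 17.8, 18.3, 29.3 and 8.22 CPM with the coacervate, against 36.8, 134, 81.7 and 14.7 CPM with HA. The groups overlapped because HA replicate 4 lay within the coacervate range (-1.86 ± 0.60, edgeR adjusted p = 0.232), and without HA replicate 2 the difference was -1.27. Mmp10, stromelysin-2, followed with 1.17 to 6.28 CPM with the coacervate and 2.56 to 23.6 CPM with HA. Timp1, an inhibitor of these enzymes, was lower without overlap (-0.80 ± 0.19), whereas Mmp13 (-0.17 ± 0.22) and the aggrecanase Adamts5 (-0.15 ± 0.25) overlapped. Of 24 tested proteases and inhibitors, 3 were lower without overlap (12.5%, against 5.36% of all genes), and the list median was -0.23. Of these 3, all but Timp1 were also counted in the neutrophil list. The promoters of the stromelysin pair are shown because each holds 1 AP-1 motif, marked in capitals, at -71 bases in Mmp3 (chr8:12925031-12925330, plus strand) and at -61 bases in Mmp10 (chr8:12974457-12974756, plus strand), both RefSeq, GRCr8.
Mmp3 promoter: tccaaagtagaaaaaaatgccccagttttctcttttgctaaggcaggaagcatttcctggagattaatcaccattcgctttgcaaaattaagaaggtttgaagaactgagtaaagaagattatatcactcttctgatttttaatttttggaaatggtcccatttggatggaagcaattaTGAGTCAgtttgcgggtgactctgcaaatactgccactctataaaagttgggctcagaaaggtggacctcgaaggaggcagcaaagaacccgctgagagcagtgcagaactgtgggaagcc
Mmp10 promoter: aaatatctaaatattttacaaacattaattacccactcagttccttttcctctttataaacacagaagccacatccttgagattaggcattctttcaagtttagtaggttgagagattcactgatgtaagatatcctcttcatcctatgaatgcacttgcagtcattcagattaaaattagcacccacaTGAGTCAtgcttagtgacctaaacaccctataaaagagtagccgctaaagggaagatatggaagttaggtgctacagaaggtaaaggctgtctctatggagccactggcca
The promoter of Mmp13, whose groups overlapped, also holds 1 TGANTCA, at -66 bases, and that of Timp1 holds none. The motif TGANTCA is present in 4 of the 16 promoters found for the protease and inhibitor list (25%). It is present in 7.33% of all promoters in the table.

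Genes of the secretory pathway were lower by small steps. Hspa5, the main chaperone of the endoplasmic reticulum, had 502 to 607 CPM with the coacervate and 624 to 837 CPM with HA (-0.41 ± 0.14). Pdia4, which forms disulphide bonds, differed by -0.36 ± 0.10, and Creld2, a stress-induced protein of the same compartment, by -0.53 ± 0.18. Of 32 tested members, 30 had a negative log2 fold change and 11 were lower without overlap (34.4%, against 5.36% of all genes), with a list median of -0.20. Of 27 tested antioxidant genes, 6 were lower without overlap (22.2%, against 5.36% of all genes) and 2 were higher (7.41%, against 4.35%), with a list median of -0.15. The peroxidase Prdx5 (-0.69 ± 0.23), the mitochondrial superoxide dismutase Sod2 (-0.37 ± 0.15) and the thioredoxin reductase Txnrd1 (-0.27 ± 0.10) were lower without overlap, and catalase, Cat, was higher (0.47 ± 0.13).

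**Figure D3:**
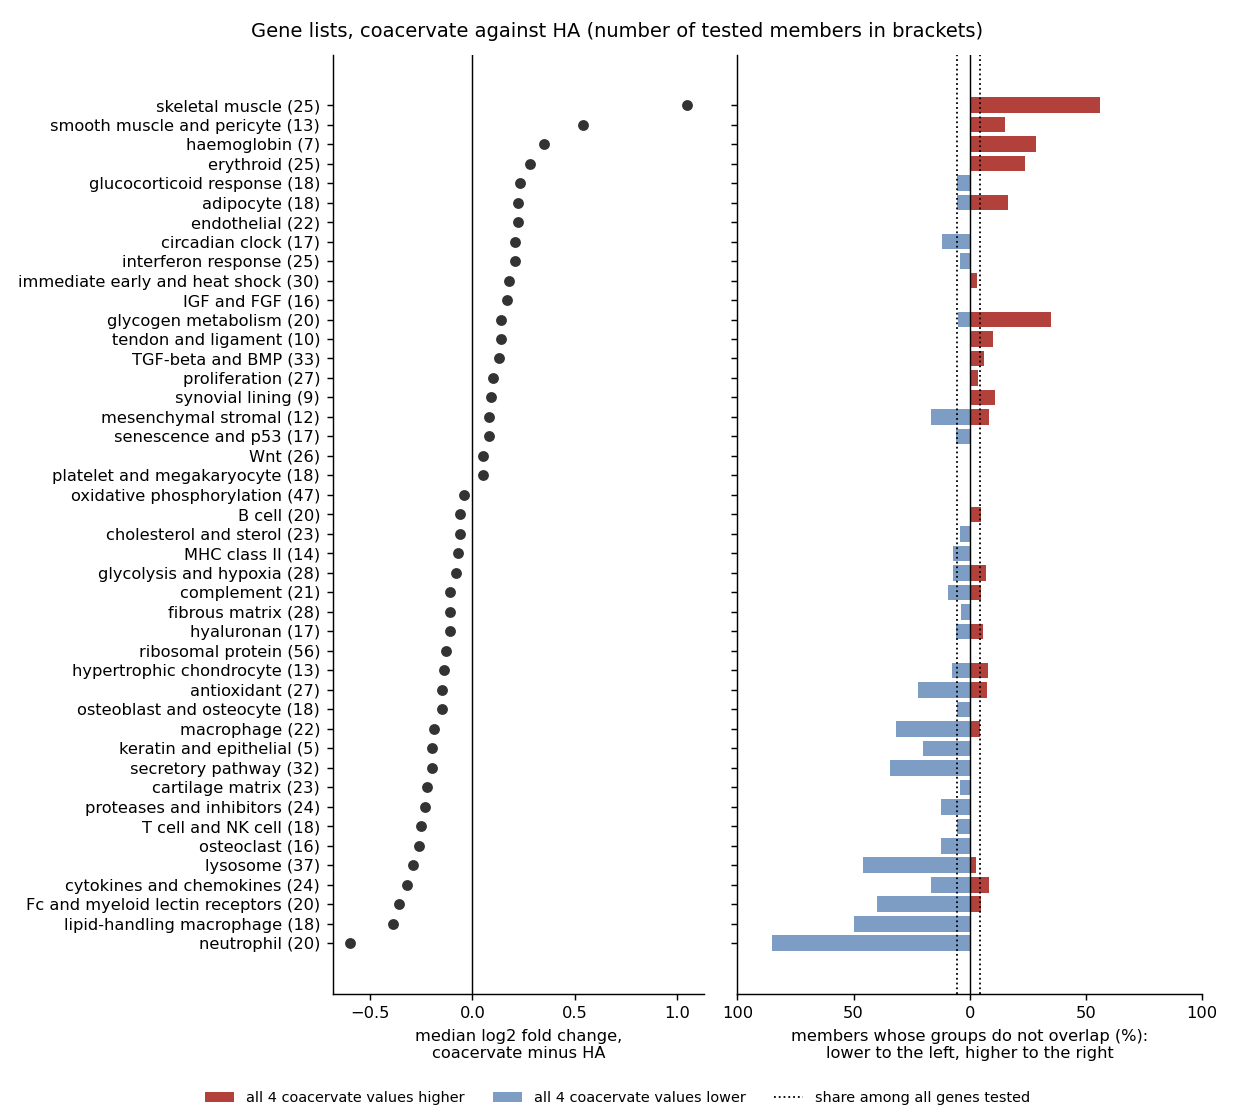
For each of the 44 gene lists, the median log2 fold change, coacervate minus HA (left), and the share of tested members whose groups do not overlap (right, lower in blue and higher in red), with dotted lines at the shares among all genes tested, 5.36% and 4.35%. The neutrophil list reaches 85% on the lower side and the skeletal muscle list 56% on the higher side.

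Skeletal muscle genes were higher with the coacervate. Ckm, the creatine kinase of muscle (chromosome 1, 80321585 to 80331841), had 839, 1378, 2827 and 886 CPM with the coacervate, against 658, 661, 539 and 691 CPM with HA (1.22 ± 0.30, edgeR adjusted p = 0.163). Acta1, the actin of skeletal muscle, had 1586 to 5652 CPM with the coacervate and 1021 to 1367 CPM with HA (1.26 ± 0.33). Each of the 25 tested members had a positive log2 fold change, 14 had no overlap (56%, against 4.35% of all genes), and the list median was 1.05. Coacervate replicate 3 held the highest Ckm, Acta1, Tnnt3 and Actn3 values, and without it the list median was 0.62 and Ckm differed by 0.70. The smooth muscle and pericyte list had a median of 0.54 with all libraries and 0.20 without that library.

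Ppp1r3c, which targets a phosphatase to glycogen (chromosome 1, 255371810 to 255376833), had 29, 40.4, 54.2 and 19.8 CPM with the coacervate, against 17.6, 18.1, 9.78 and 13.4 CPM with HA. The groups did not overlap (1.29 ± 0.27, edgeR adjusted p = 0.138), and without coacervate replicate 3 the difference was 1.02. Pygm, the glycogen phosphorylase of muscle, had 345, 574, 1288 and 347 CPM with the coacervate and 278, 276, 214 and 255 CPM with HA (1.32 ± 0.37). Ppp1r3a and Phkg1, further muscle forms of the glycogen machinery, differed by 1.48 ± 0.38 and 1.30 ± 0.34. Without coacervate replicate 3, Pygm differed by 0.72, Ppp1r3a by 0.86 and Phkg1 by 0.78. Of 20 tested glycogen genes, 7 were higher without overlap (35%, against 4.35% of all genes) and 1 was lower (5%, against 5.36%), but the list median was 0.14 and was -0.01 without coacervate replicate 3. The muscle share of counts moved with these genes, and its part in them was not tested.

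Immediate early genes, which switch on within minutes of a stimulus, varied between the coacervate libraries and were highest in replicate 3. Fosb, a subunit of AP-1, had 31.7, 8.81, 153 and 2.45 CPM with the coacervate, against 2.68, 7.54, 4.63 and 4.75 CPM with HA. Its highest and its lowest value were both coacervate libraries (3.32 ± 0.98, edgeR adjusted p = 0.194), and without coacervate replicate 3 the difference was 1.55. Apold1, an early response gene of endothelial cells (chromosome 4, 168752133 to 168755023), had 34.2, 33, 53.9 and 17.1 CPM with the coacervate, against 12.1, 17.9, 12.8 and 13.9 CPM with HA (1.28 ± 0.28, adjusted p = 0.138). Coacervate replicate 4 lay within the HA range. The nuclear receptor Nr4a1 (1.55 ± 0.48) and the clock gene Per1 (1.36 ± 0.37) also overlapped, and Egr1 did not (1.14 ± 0.39). Without coacervate replicate 3, Nr4a1 differed by 0.71, Per1 by 0.96 and Egr1 by 0.64. Of 30 tested members, 23 had a positive log2 fold change and 1 had no overlap (3.33%, against 4.35% of all genes), with a list median of 0.18 that was -0.02 without coacervate replicate 3.

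**Figure D4:**
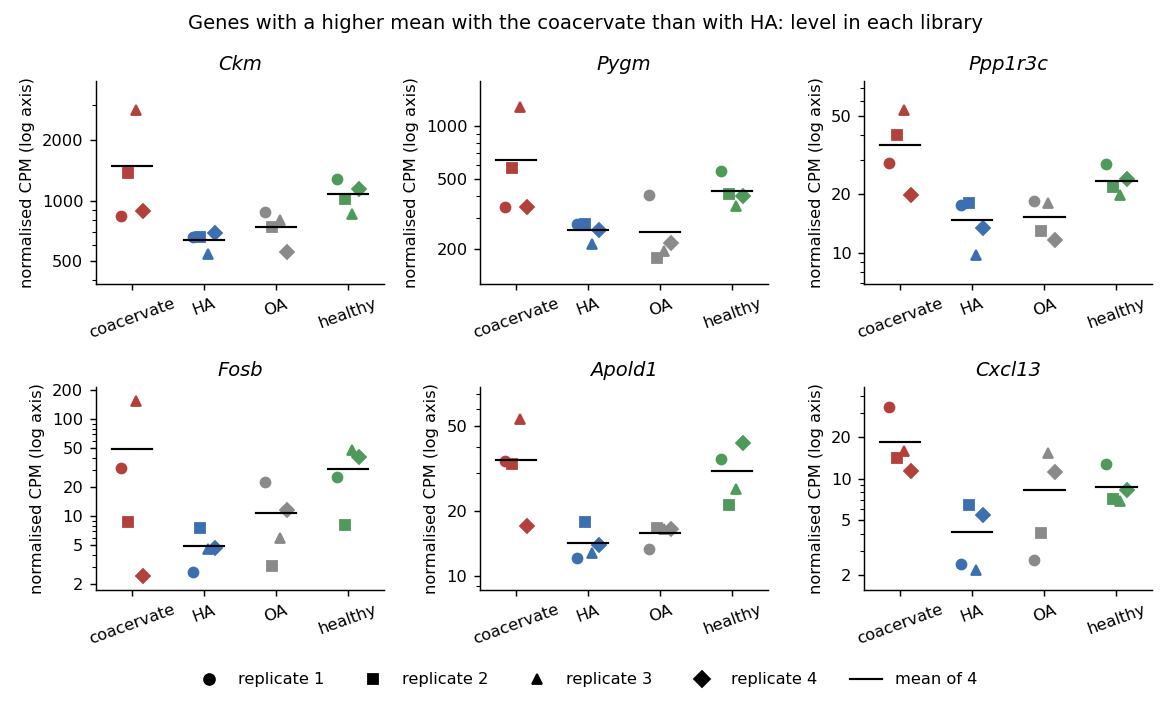
Normalised CPM on a log axis in each of the 16 libraries for 6 genes, with coacervate, HA, osteoarthritic (OA) and healthy libraries from left to right, a symbol for each replicate and a line at the mean of 4. Coacervate replicate 3, drawn as a triangle, is the highest coacervate library for Ckm, Pygm, Ppp1r3c, Fosb and Apold1 but not for Cxcl13.

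Red cell genes were slightly higher with the coacervate. Slc4a1, the anion exchanger of the red cell membrane, had 3885, 3712, 4092 and 4209 CPM with the coacervate, against 2686, 2534, 3469.6 and 3095 CPM with HA (0.43 ± 0.18, edgeR adjusted p = 0.413). Xpo7, a nuclear exporter of maturing red cells, differed by 0.40 ± 0.16. Each of the 25 tested erythroid genes had a positive log2 fold change, 6 had no overlap (24%, against 4.35% of all genes), and the list median was 0.28, or 0.18 without coacervate replicate 1. Hba-a2, an alpha globin with near copies whose reads cannot be told apart, had 28780.4 to 36768 CPM with the coacervate and 22889 to 27942 CPM with HA. The haemoglobin share of counts moved with these genes, and its part in them was not tested. Of 27 tested proliferation genes, 24 had a positive log2 fold change and 1 was higher without overlap (3.7%, against 4.35% of all genes), with a list median of 0.10. That gene was Mki67, at the top of the list's range, which had 1648 to 1699.98 CPM with the coacervate and 1061 to 1419 CPM with HA (0.41 ± 0.22).

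Cartilage matrix genes did not separate the carriers. Col2a1 had 2139, 1387, 1134 and 1793 CPM with the coacervate and 2080.4, 2015, 3069 and 1989 CPM with HA (-0.50 ± 0.32, 95% interval -1.19 to 0.18). Acan, the large proteoglycan of cartilage, differed by -0.20 ± 0.35 (interval -0.95 to 0.55), the chondrocyte factor Sox9 by 0.23 ± 0.33 (-0.47 to 0.93) and lubricin, Prg4, by 0.09 ± 0.36 (-0.68 to 0.86). The direction of Prg4 changed to -0.25, and that of Comp, an extracellular matrix glycoprotein (0.20 ± 0.22), to -0.06, without coacervate replicate 3. Of 23 tested members, Matn4, a matrilin of the matrix, was the 1 that did not overlap (-0.95 ± 0.32). That is 4.35% lower without overlap, against 5.36% of all genes. The list median was -0.22, or -0.08 without HA replicate 3. Sox6, a partner of Sox9 in chondrocytes, went the other way with overlapping groups, at 37 to 44.1 CPM with the coacervate and 23.4 to 37.1 CPM with HA (0.48 ± 0.19, edgeR adjusted p = 0.352). Cnmd, an inhibitor of vessel growth, and Col9a2 were low in coacervate replicates 2 and 3, at 16 and 6.38 CPM and at 34.2 and 21.5 CPM. Col10a1, the collagen of hypertrophic chondrocytes, overlapped (-0.80 ± 0.47), as did its hedgehog regulator Ihh (-0.97 ± 0.40), while the transcription factor Mef2c, which muscle also uses, was higher without overlap (0.65 ± 0.16). Col1a1, the collagen of bone and fibrous tissue, differed by -0.16 ± 0.32, and Cthrc1, a secreted protein of fibroblasts, was lower without overlap (-0.64 ± 0.20).

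Of 17 tested genes that make, break down or bind hyaluronan, Lyve1 was higher without overlap (5.88%, against 4.35% of all genes). Cd44 was lower without overlap (5.88%, against 5.36%). Both shares are near those of all genes. Cd44, the main HA receptor, had 261, 254, 255 and 233 CPM with the coacervate, against 308, 353, 332 and 265 CPM with HA (-0.33 ± 0.10, edgeR adjusted p = 0.218). Has2, a hyaluronan synthase, overlapped (-0.26 ± 0.33). The list median was -0.11.

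Krt75, a keratin of hair follicles (chromosome 7, 143219012 to 143228060), had 1.58, 1.32, 1.94 and 1.34 CPM with the coacervate, against 5.69, 4.62, 4.61 and 3.98 CPM with HA. The groups did not overlap (-1.61 ± 0.28, edgeR adjusted p = 0.101), and its coacervate values rest on 66 to 92 counts. Only 5 of the 18 listed keratin and epithelial genes passed the filter on low values. Pabpc4, a poly(A)-binding protein of the cytoplasm, was higher without overlap, at 404 to 455 CPM with the coacervate and 318 to 352 CPM with HA (0.39 ± 0.09, adjusted p = 0.138). Lep, the fat hormone leptin, had 2.02 to 5.31 CPM with the coacervate and 0.783 to 1.51 CPM with HA (1.71 ± 0.41). C5ar1, a complement receptor of myeloid cells, was lower without overlap (-0.51 ± 0.12), as were Ctss, a cathepsin of antigen-presenting cells (-0.64 ± 0.20), Irf1, an interferon response factor (-0.46 ± 0.10), Nkg7, a granule protein of killer cells (-0.53 ± 0.19), and the glycolytic enzyme Pgam1 (-0.45 ± 0.11). Of 14 tested MHC class II genes, Ctss alone did not overlap (7.14%, against 5.36% of all genes), with a list median of -0.07. Irf1 alone did not overlap among 25 interferon response genes (4%), whose median was 0.21, with 18 positive log2 fold changes and 7 negative. Pfkm, the muscle form of phosphofructokinase, was higher (0.95 ± 0.28), and differed by 0.48 without coacervate replicate 3.

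Across the 16 libraries, the genes whose log2 CPM followed that of Apoe most closely were Scimp (Pearson r = 0.935), Htr2b (0.923), Cd14 (0.918), Dpp7 (0.912) and Lgals3 (0.91). These libraries share 4 groups, so group differences enter each r, which is given as a description over 16 libraries. Scimp, a membrane adaptor found in antigen-presenting cells, had 3.1 to 3.57 CPM with the coacervate and 7.16 to 21.3 CPM with HA, and Dpp7, a peptidase of vesicles, had 69.4 to 81.2 CPM with the coacervate and 94.7 to 126 CPM with HA. Htr2b, a serotonin receptor, differed by -1.25 ± 0.34. All 5 had no overlap between the carriers, against 9.71% of all genes. They were picked for following Apoe, whose groups did not overlap either, so this count is not a separate result.

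Each carrier was also set against osteoarthritic cartilage, with the same 4 osteoarthritic libraries in both. With the coacervate, 21 of 14337 genes passed edgeR's test (0.146%), 3 that rose (0.0209%) and 18 that fell (0.126%). With HA none did (0%), and 909 had an unadjusted p under 0.05. The adjusted p of the 21 genes ran from 0.0421 to 0.0497, close to the threshold. Neither contrast was repeated without OA replicates 2 and 3, which stood apart on the first principal component. Apoe fell by 1.98 ± 0.36 with the coacervate (adjusted p = 0.0497) and differed by 0.18 ± 0.34 with HA (adjusted p = 0.911). Fcgr2a fell by 1.07 ± 0.17 with the coacervate and differed by -0.09 ± 0.17 with HA, and Ctsl fell by 0.77 ± 0.13 with the coacervate and differed by -0.05 ± 0.13 with HA. Ccl7 and Fabp5 fell too, by 2.59 ± 0.47 and 1.19 ± 0.21, each of the 5 with an adjusted p of 0.0497. The difference between the carriers is the test given first, which none of these genes passed. Apoe had 1349, 1263, 1393 and 2648 CPM in osteoarthritic and 322, 227, 574 and 222 CPM in healthy libraries, so that the 4 coacervate values lay within the healthy range and the 4 HA values within the osteoarthritic one. Against healthy cartilage, the list median was -0.03 with the coacervate and 0.42 with HA for lipid-handling macrophage genes. For neutrophil genes it was -0.34 and 0.31, for skeletal muscle genes 0.33 and -0.73, and for fibrous matrix genes 0.53 and 0.64.

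**Figure D5:**
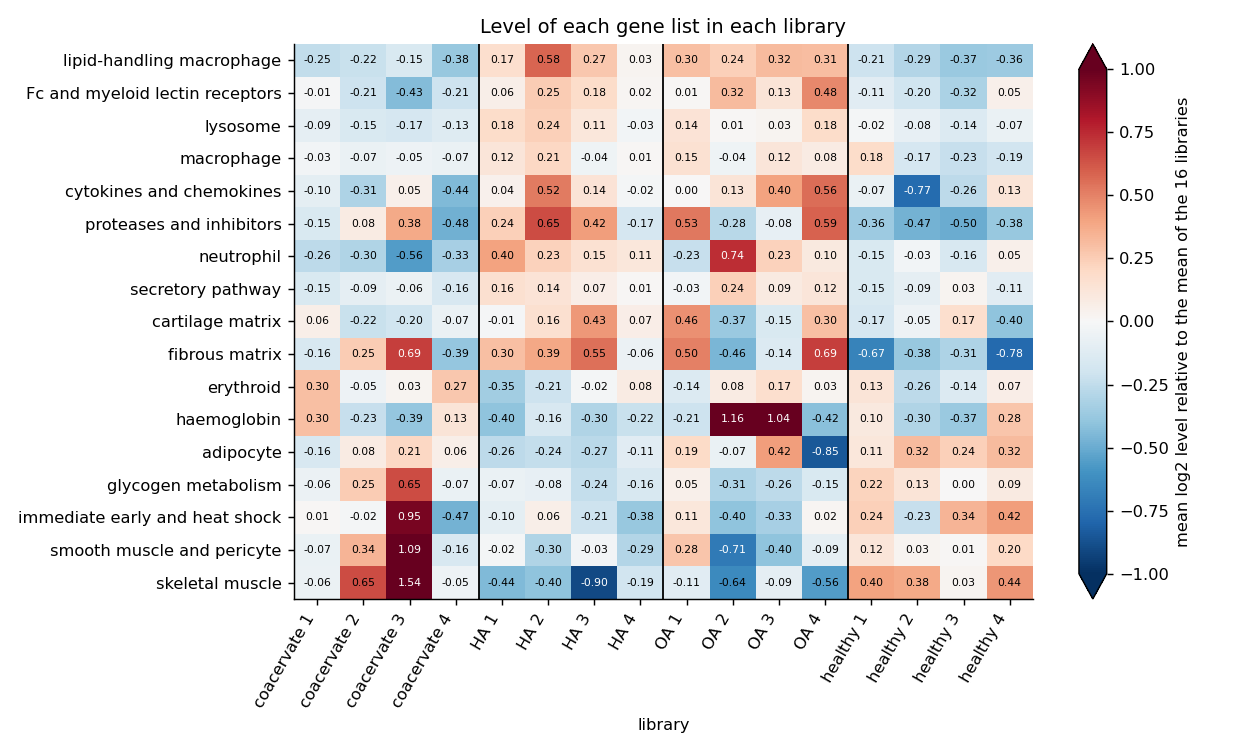
Mean log2 level of 17 gene lists in each of the 16 libraries, relative to the mean of the 16, from blue (low) to red (high), with coacervate, HA, osteoarthritic (OA) and healthy libraries from left to right. The neutrophil and lipid-handling macrophage lists are below 0 in all 4 coacervate libraries and above 0 in all 4 HA libraries, and the skeletal muscle list reaches 1.54 in coacervate replicate 3.

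Some further lists held members that did not overlap. Of 18 tested adipocyte genes, 3 were higher (16.7%, against 4.35% of all genes), namely Lep, the glucose transporter Slc2a4 (0.69 ± 0.22) and the glycerol phosphate dehydrogenase Gpd1 (0.57 ± 0.24). The triglyceride enzyme Dgat2 was the 1 that was lower (-0.49 ± 0.16), which is 5.56%, against 5.36% of all genes. Muscle also uses Slc2a4, and without coacervate replicate 3 it differed by 0.39 and Gpd1 by 0.31. Of 12 tested mesenchymal stromal genes, 2 were lower (16.7%, against 5.36% of all genes), Cd44 and the adhesion molecule Alcam (-0.51 ± 0.22), and 1 was higher (8.33%, against 4.35%). Of 17 tested circadian clock genes, 2 repressors were lower (11.8%, against 5.36% of all genes), Nfil3 (-0.47 ± 0.15) and Bhlhe41 (-0.77 ± 0.33). The list as a whole went the other way, with 14 positive log2 fold changes and a median of 0.21, or 0.05 without coacervate replicate 3. Osteoclast genes had a median of -0.26, or -0.12 without HA replicate 1, with 2 of 16 lower (12.5%, against 5.36% of all genes). Of these 2, 1 was also counted in the neutrophil list and in the protease and inhibitor list.

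No member differed without overlap among 47 oxidative phosphorylation entries (median -0.04), 56 ribosomal protein entries (-0.13), 26 Wnt genes (0.05), 18 platelet genes (0.05), 22 endothelial genes (0.22) or 16 IGF and FGF genes (0.17). Interferon response genes had a median of 0.21, or -0.01 without coacervate replicate 1, with 1 of 25 members lower without overlap (4%, against 5.36% of all genes). TGF-beta and BMP genes had a median of 0.13, or 0.04 without coacervate replicate 3, with 2 of 33 higher without overlap (6.06%, against 4.35%). None of these counts came from a test.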

How the data were processed

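RNA from rat knee cartilage was sequenced from both ends after oligo(dT) selection with a dUTP-marked second strand, per the labels' protocols. The submitters' processing notes list build rn6, DESeq2, edgeR, StringTie 2.1.6, HISAT2 2.2.1 and cutadapt 1.9 and give no roles. The counting tool, annotation version and strand setting are not given in the sources used here, so genes that overlap on opposite strands are uncertain. Per the file headers, 1 deposited table gives a whole-number count and an FPKM for 23552 genes in each of 16 libraries. The deposited counts are not normalised, and FPKM, as deposited, corrects for gene length and depth.

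Genes with at least 1 FPKM in at least 4 libraries were tested (14337) with edgeR's quasi-likelihood test on counts, TMM scaling and 4 group means in 1 fit, and p-values were adjusted by Benjamini and Hochberg with a threshold of 0.05. Error terms are standard errors of the log2 fold change unless marked SD. The tools were edgeR 4.0.16, DESeq2 1.42.0 and limma 3.58.1 in R 4.3.3, with python 3.11.15 and matplotlib 3.10.9, and the procedure was tested on simulated data. The named genes were the 12 largest changes each way among genes that passed or, as none passed, the 3 smallest p each way, with 5 markers, up to 4 members of each list by smallest p, a fixed panel and the 5 genes most like Apoe. The text gives part of the genes that this rule names; 1 gene is not reported here, and the others are counted in their lists only. S100a8, S100a9 and Elane, given by name alone, fell outside this rule and were chosen after their values were seen. The members and the 44 gene lists were chosen with earlier results of these data known. Of 1003 list entries, 961 were found in the table, and the others were not analysed here. Some genes belong to more than 1 list, so the counts of different lists are not independent. Alternatives were other scalings, filters, DESeq2, limma, robust priors, the 8 libraries alone, a replicate block and each library left out. Same-numbered libraries did not deviate together (correlation -0.17 to 0.11). Promoters were matched to RefSeq by symbol, gene identifier or synonym for 68 of 90 genes. The matched positions were not compared with those of build rn6. Counts are of amplified fragments without molecular identifiers, so intervals cover the spread between libraries.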

Additional observations from a re-analysis of the deposited data

Results flagged for a closer look

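Single libraries lay apart from the other 3, relative to the range of their group, in 22 of 296 groups of values checked. For this measure, chance alone marks about 1 in 20. The gap can be small in level where the other 3 lie close together. OA replicate 4 stood apart for Apoe at 2648 CPM, against 1263 to 1393 in the other 3. OA replicate 1 stood apart for Apold1 at 13.4 CPM, against 16.5 to 16.7 in the other 3. HA replicate 2 stood apart for Ctsl at 308 CPM, against 205 to 211 in the other 3, Spp1 at 3038 CPM, against 1409 to 1585 in the other 3 and Scimp at 21.3 CPM, against 7.16 to 9.2 in the other 3. It also stood apart for Clec7a at 185 CPM, against 117 to 119 in the other 3, Matn4 at 5.76 CPM, against 5.27 to 5.31 in the other 3 and Prdx5 at 187 CPM, against 125 to 134 in the other 3. Healthy replicate 4 stood apart for Ccl7 at 1.26 CPM, against 0.648 to 0.749 in the other 3. Coacervate replicate 1 stood apart for Fabp5 at 34.5 CPM, against 21.9 to 23 in the other 3 and Il1b at 18.6 CPM, against 9.08 to 10.3 in the other 3. HA replicate 1 stood apart for Irf1 at 61.1 CPM, against 48.3 to 50.4 in the other 3. Coacervate replicate 3 stood apart for Phkg1 at 28 CPM, against 8.99 to 12.1 in the other 3, Pfkm at 459 CPM, against 161 to 212 in the other 3 and Hspa5 at 607 CPM, against 502 to 519 in the other 3. It also stood apart for Nkg7 at 52.4 CPM, against 70.1 to 71.8 in the other 3 and Gpd1 at 113 CPM, against 58.5 to 67 in the other 3. HA replicate 3 stood apart for Col2a1 at 3069 CPM, against 1989 to 2080.4 in the other 3. HA replicate 4 stood apart for Gpd1 at 56.1 CPM, against 47.8 to 49 in the other 3. Coacervate replicate 4 stood apart for Creld2 at 36.9 CPM, against 29.6 to 30 in the other 3. The interferon response list level of HA replicate 1 was 0.35, against -0.27 to -0.17 on the log2 scale in the other 3 HA libraries. Its haemoglobin share was 10.6%, against 11.6% to 11.7%.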

How the results depend on the processing

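The count of genes called between the carriers was 0 under RLE and upper-quartile scaling, scaling without haemoglobin genes, both other filters, limma with both pseudocounts, a robust prior and the 8 libraries alone, with 1354 to 2245 genes at an unadjusted p under 0.05. It was 325 with DESeq2 and 149 without OA replicates 2 and 3, and it ranged from 0 to 11 when 1 library was left out, the 11 without HA replicate 4. With the replicate number as a block, 0 genes were called and 1337 had an unadjusted p under 0.05. The number of non-overlapping genes ranged from 1698 to 2185 when 1 library was left out, which raises it by construction because fewer values must separate. The direction of Prg4 was reversed by limma with a pseudocount of 1 (-0.02) or 0.5 (-0.03), without coacervate replicate 3 (-0.25) and without HA replicate 4 (-0.05), and that of Comp without coacervate replicate 3 (-0.06). Leaving out 1 library gave -0.25 to 0.26 for Prg4 and -0.06 to 0.35 for Comp. The cause was not tested. For the other values of named genes, 2436 alternatives kept direction and side of the threshold and 79 passed it. With 4 libraries a group, missing the threshold does not show equal levels.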
